A study of Mus musculus with 8 samples.

Results

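The genes described here are 8 genes of lysosomal hydrolases and lysosomal membrane proteins: Psap, Ctsd, Ctsb, Ctsl, Hexa, Lamp1, Lamp2 and Cd63. They were chosen by name as lysosomal genes, with earlier results of these data known, and found among the 47643 genes of a count table by matching Ensembl identifiers without their version to gene symbols. All 8 were in the table and all 8 passed the filter on low counts, as part of 16388 genes tested. The libraries hold polyadenylated RNA of mouse E14 embryonic stem cells of 129/Ola background, a line derived from the blastocyst. The labels name 4 genotypes with 2 libraries each: a Dgcr8 knockout (Dgcr8 KO), a Drosha knockout (Drosha KO), a knockout named Ago1_2 KO after the genes Ago1 and Ago2, and wild type (WT). Every group had been kept for at least 2 weeks in 2i medium, that is N2B27 with LIF, the GSK3 inhibitor CHIR99021 and the MEK inhibitor PD0325901. The labels do not say how the alleles were made, whether each KO is 1 clone, or whether a genotype was cultured separately for each library. The p-values below therefore measure only the spread between these libraries, which may be technical.

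Lysosomes digest proteins, lipids and sugars delivered by endocytosis and autophagy, with acid hydrolases in their lumen and heavily glycosylated proteins in their membrane. Many of their genes share an E-box-like promoter element that the transcription factors TFEB, TFE3 and MITF bind, the CLEAR element, which has CACGTG at its core. In mouse embryonic stem cells TFE3 is also known as a factor whose nuclear level matters for leaving the naive state. DROSHA and DGCR8 form the Microprocessor that cuts primary miRNA transcripts, and Argonaute proteins such as AGO1 and AGO2 carry the mature miRNAs.

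The promoters of the genes differ in whether they hold that core, so the windows of Psap, Ctsd and Lamp1 are shown: Psap was the only one of the 8 genes that edgeR called between genotypes, Ctsd is the most abundant of the hydrolases, and Lamp1 holds the most copies. Each window runs from 250 bases before to 50 after the start of the gene in RefSeq (GRCm38.p6), 5′ to 3′ on the strand of the gene, with every CACGTG in capitals. The Psap window, of the upstream of its RefSeq starts, is chr10:60277378-60277677 on the plus strand, the Ctsd window is chr7:142387778-142388077 on the minus strand, and the Lamp1 window is chr8:13158911-13159210 on the plus strand.
Psap: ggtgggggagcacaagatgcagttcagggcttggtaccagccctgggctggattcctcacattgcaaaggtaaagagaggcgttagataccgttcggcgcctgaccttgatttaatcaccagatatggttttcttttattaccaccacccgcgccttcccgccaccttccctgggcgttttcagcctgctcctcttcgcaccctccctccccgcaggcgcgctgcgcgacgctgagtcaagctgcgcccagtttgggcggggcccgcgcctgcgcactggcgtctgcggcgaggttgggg
Ctsd: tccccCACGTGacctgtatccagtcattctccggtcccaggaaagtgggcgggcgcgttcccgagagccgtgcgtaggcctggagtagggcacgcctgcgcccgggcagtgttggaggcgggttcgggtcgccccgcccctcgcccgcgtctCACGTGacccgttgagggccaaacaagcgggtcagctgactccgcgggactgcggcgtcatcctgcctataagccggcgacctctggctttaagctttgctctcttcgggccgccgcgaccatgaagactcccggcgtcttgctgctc
Lamp1: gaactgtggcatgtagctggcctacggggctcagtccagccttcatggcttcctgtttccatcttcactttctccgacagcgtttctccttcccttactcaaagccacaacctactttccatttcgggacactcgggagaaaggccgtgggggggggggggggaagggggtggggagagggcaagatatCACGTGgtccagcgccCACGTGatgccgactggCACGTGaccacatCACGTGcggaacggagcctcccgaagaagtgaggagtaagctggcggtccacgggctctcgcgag

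Windows were found for 7 of the 8 genes, the exception being Ctsb, and 3 of the 7 held CACGTG. Lamp1 had 4 copies, at -61, -45, -28 and -15 relative to the RefSeq start, Ctsd had 2, at -245 and -98, and Ctsl had 1, at -236. Neither Psap window, nor those of Lamp2, Hexa and Cd63, held it. The Cd63 window, chr10:128909095-128909394, lies inside the gene as annotated in GENCODE, which begins at 128900989. It therefore does not cover that annotated start. The Ctsl window, chr13:64370471-64370770 on the minus strand, also lies inside its GENCODE gene, which starts at 64370890. The Ctsl match is thus downstream of that GENCODE start. The Ctsd window covers the GENCODE start at 142388038, but the Ctsd match at -98 lies downstream of it, inside the gene. The motif reads the same on both strands, and 7.15% of all 32851 promoter windows of this length in the table held it. Of the 18856 windows of genes with a count, 8.81% held it. The longer TCACGTG, which overlaps it and was searched on both strands, stood in the windows of Ctsd and Lamp1 and in 3.77% of all windows. These matches describe letters in a window and were not tied to binding.

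**Figure D1:**
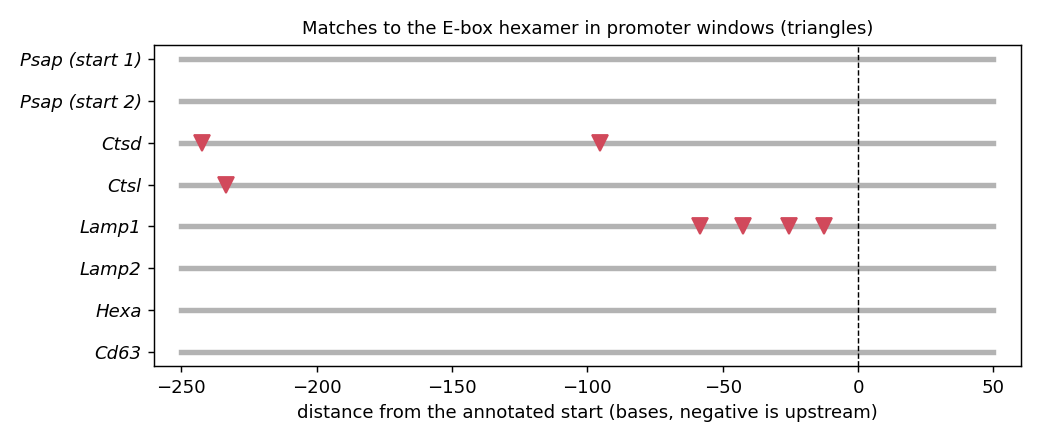
Positions of CACGTG in the RefSeq promoter windows of the genes described here, by distance in bases from the RefSeq start (x axis), with 1 row per window. Lamp1 has 4 matches within the 61 bases before the start, Ctsd has 2, Ctsl has 1, and the other windows have none.

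Total counts lay between 13229771 and 26333907 per library. All 10 listed markers of naive embryonic stem cells were detected in every genotype. Their summed level, in counts relative to the TMM-scaled library size (CPM), was 7150 and 6740 CPM in Dgcr8 KO, 8160 and 9560 CPM in Drosha KO, 8350 and 8340 CPM in Ago1_2 KO, and 8490 and 9940 CPM in WT. Drosha mRNA was lower in Drosha KO (51.2 and 82.4 CPM) than in WT (278 and 266 CPM). Dgcr8 mRNA was higher in the libraries labelled Dgcr8 KO (392 and 370 CPM) than in WT (78.1 and 70.5 CPM). It was also higher than WT in Drosha KO (304 and 234 CPM), and stood at 91.2 and 82.9 CPM in Ago1_2 KO. In the libraries labelled Ago1_2 KO, Ago1 stood at 160 and 87.8 CPM against 106 and 63.3 CPM in WT, and Ago2 at 216 and 195 CPM against 464 and 227 CPM in WT. Dgcr8 KO had Ago1 at 188 and 151 CPM and Ago2 at 522 and 396 CPM. Drosha KO had Ago1 at 295 and 170 CPM and Ago2 at 1070 and 809 CPM. Ago2 was thus lowest in Ago1_2 KO, though close to WT 2, while Ago1 overlapped WT. The level of a targeted mRNA therefore does not by itself check the label of Dgcr8 KO or of Ago1_2 KO. Every direction given for these groups below is for the libraries so labelled. Libraries of the same genotype differed from each other over 2-fold for 0.217% of genes at a mean of 5 CPM or more in Dgcr8 KO, for 6.59% in Drosha KO, for 0.525% in Ago1_2 KO and for 9.44% in WT.

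The 8 genes were abundantly expressed in these stem cells. Per kilobase of merged exons, averaged over all libraries, Lamp1 had the highest level at 208 CPM per kb, followed by Ctsd at 178, Psap at 93, Hexa at 89.4, Ctsb at 41.4, Ctsl at 39.6, Cd63 at 38.4 and Lamp2 at 32.7 CPM per kb. These levels lie between the 89.1 and the 98.2 percentile of the genes tested. Every neighbouring pair in this order had overlapping ranges over the libraries. Together the 8 genes summed to 2000 and 2068 CPM in Dgcr8 KO, 1799 and 3205 CPM in Drosha KO, 2236 and 2357 CPM in Ago1_2 KO, and 2459 and 2828 CPM in WT. The highest and the lowest sum thus both belong to Drosha KO, while both Dgcr8 KO and both Ago1_2 KO sums lie below both WT sums. In bulk RNA, fewer cells that express a gene and less RNA per cell cannot be told apart.

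**Figure D2:**
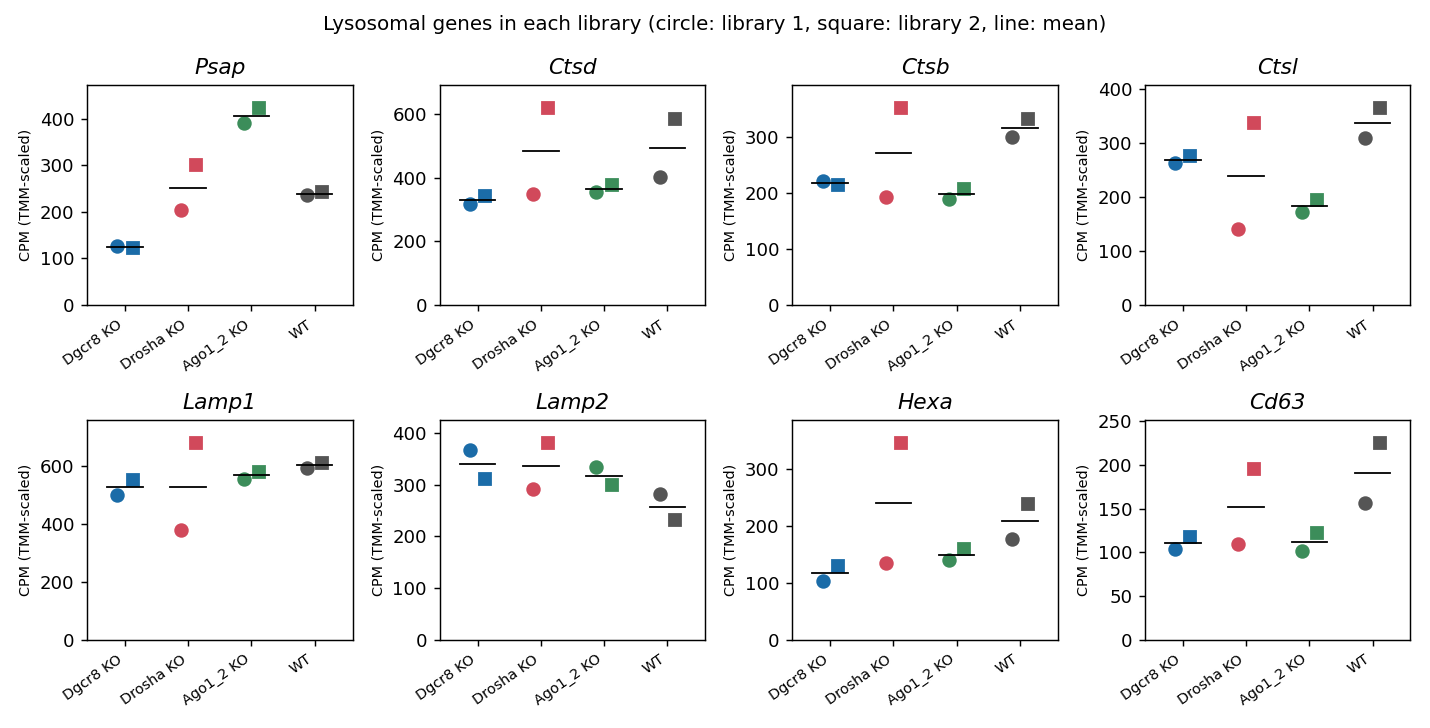
Level of each of the 8 genes in each library, in TMM-scaled CPM (y axes, each from 0), with the KO genotypes left of WT; circles are library 1, squares library 2 and lines the means of the 2. Psap stands apart by genotype, at 391 and 422 CPM in Ago1_2 KO and 126 and 122 CPM in Dgcr8 KO, while the Drosha KO libraries are far apart for most genes.

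Psap (ENSMUSG00000004207.14, GRCm38 chromosome 10, 60277627 to 60302597, plus strand, protein-coding with 17 merged exons) encodes prosaposin, the precursor that is cut into the saposins, small activators of sphingolipid hydrolases. It had 126 and 122 CPM in Dgcr8 KO, 203 and 300 CPM in Drosha KO, 391 and 422 CPM in Ago1_2 KO, and 236 and 242 CPM in WT. The Dgcr8 KO libraries were lower than all others and the Ago1_2 KO libraries higher than all others, while the Drosha KO libraries lay on both sides of WT. In Dgcr8 KO, Psap fell to 51.9% of the WT level (log2 change -0.95 ± 0.21, SE, edgeR quasi-likelihood test, adjusted p = 0.0327, 95% interval -1.42 to -0.47). In Ago1_2 KO it rose 1.7-fold over WT (log2 change 0.77 ± 0.21, edgeR adjusted p = 0.0362, interval 0.29 to 1.24). In Drosha KO the log2 difference from WT was 0.08 ± 0.21 (edgeR adjusted p = 0.839), with an interval of -0.40 to 0.55. These comparisons share the WT libraries. A joint test over the 4 genotypes also called Psap (edgeR adjusted p = 0.00415), and none of the other 7 genes, beside 24.8% of all genes tested.

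Set against each other, the KO genotypes differed in Psap without use of WT in the contrast. Psap was 3.28-fold higher in Ago1_2 KO than in Dgcr8 KO (log2 difference 1.71 ± 0.22, interval 1.23 to 2.20, edgeR adjusted p = 0.00146). This was the difference that stayed past the threshold in all 18 alternative settings, with log2 values of 1.33 to 1.77 and adjusted p of 2.66e-11 to 0.0291. Psap was also 2.03-fold higher in Drosha KO than in Dgcr8 KO (log2 difference 1.02 ± 0.21, edgeR adjusted p = 0.0141). Between Ago1_2 KO and Drosha KO it differed 1.62-fold with an interval of 0.22 to 1.17 on the log2 scale and was not called (edgeR adjusted p = 0.242).

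The calls of Psap against WT rest on few libraries. In Dgcr8 KO the call ended without either Dgcr8 KO library (adjusted p = 0.264 without library 1 and 0.208 without library 2), without either Ago1_2 KO library (0.0684 and 0.068) and without WT 2 (0.0717), and the log2 change stayed between -0.96 and -0.92 in these fits. It also ended with an offset for transcript GC content, at -0.59 (adjusted p = 0.0925). Over 16315 genes, log2 change in Dgcr8 KO against WT ran with transcript GC at a Spearman correlation of -0.44, a description across genes, and the longest Psap transcript has 54.7% GC. In Ago1_2 KO the call ended without either Dgcr8 KO library (adjusted p = 0.0769 and 0.0782), without either Ago1_2 KO library (0.145 and 0.192), without WT 2 (0.0692) and with only the 2 genotypes compared (0.0568), at log2 values of 0.71 to 0.82. For Drosha KO against Dgcr8 KO it ended without either Dgcr8 KO library (0.126 and 0.129), without Drosha KO 2 (log2 difference 0.72, adjusted p = 0.0599) and with the GC offset (0.65, adjusted p = 0.0518).

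The cathepsins are the main lysosomal proteases: cathepsin D is an aspartic protease, and cathepsins B and L are cysteine proteases. None of the 3 genes was called by edgeR in any comparison of 2 genotypes. Ctsd (ENSMUSG00000007891.15, chromosome 7, 142375911 to 142388038, minus strand) had 317 and 343 CPM in Dgcr8 KO, 348 and 617 CPM in Drosha KO, 355 and 375 CPM in Ago1_2 KO, and 403 and 583 CPM in WT. Both Dgcr8 KO and both Ago1_2 KO libraries were below both WT libraries, and Drosha KO had 1 library below and 1 above them. Its log2 difference from WT was -0.58 ± 0.29 in Dgcr8 KO (SE, edgeR adjusted p = 0.203), -0.03 ± 0.28 in Drosha KO (0.953) and -0.43 ± 0.29 in Ago1_2 KO (0.306).

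Ctsb (ENSMUSG00000021939.7, chromosome 14, 63122462 to 63145923, plus strand) had 221 and 213 CPM in Dgcr8 KO, 193 and 350 CPM in Drosha KO, 188 and 206 CPM in Ago1_2 KO, and 300 and 332 CPM in WT. Dgcr8 KO and Ago1_2 KO again lay below WT in both libraries. In Ago1_2 KO it averaged 62.2% of WT (log2 difference -0.68 ± 0.26, interval -1.27 to -0.10), with an unadjusted p of 0.0263 and an edgeR adjusted p of 0.0959. In Dgcr8 KO it averaged 68.5% of WT (edgeR adjusted p = 0.19).

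Ctsl (ENSMUSG00000021477.8, chromosome 13, 64359337 to 64370890, minus strand) had 262 and 276 CPM in Dgcr8 KO, 141 and 338 CPM in Drosha KO, 172 and 195 CPM in Ago1_2 KO, and 310 and 364 CPM in WT. Both libraries of Ago1_2 KO and of Dgcr8 KO lay below WT, and Drosha KO 1 was the lowest of all. In Ago1_2 KO it averaged 54.4% of WT (log2 difference -0.88 ± 0.34, unadjusted p 0.0271, edgeR adjusted p = 0.0979), where DESeq2 called it (-0.85, adjusted p = 0.0478). In Dgcr8 KO it averaged 79.8% of WT (edgeR adjusted p = 0.532). Without Drosha KO 2, Ctsl passed the threshold in Drosha KO against WT at a log2 difference of -1.25 (edgeR adjusted p = 0.0134), a fit in which Drosha KO 1 is assumed to vary like the other groups, and without Drosha KO 1 the difference was 0.01.

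Hexa (ENSMUSG00000025232.7, chromosome 9, 59539540 to 59565109, plus strand) encodes the alpha subunit of beta-hexosaminidase, which removes a terminal sugar from GM2 ganglioside. It had 103 and 130 CPM in Dgcr8 KO, 134 and 345 CPM in Drosha KO, 139 and 159 CPM in Ago1_2 KO, and 177 and 239 CPM in WT. Drosha KO 2 held the highest value and Dgcr8 KO the lowest. Hexa averaged 56.1% of WT in Dgcr8 KO (log2 difference -0.83 ± 0.37, edgeR adjusted p = 0.167) and 71.5% in Ago1_2 KO (edgeR adjusted p = 0.379). Against Dgcr8 KO it averaged 2.05-fold in Drosha KO (log2 difference 1.04 ± 0.37), where it missed the threshold in edgeR (adjusted p = 0.089) and passed it in DESeq2 (1.04, adjusted p = 0.0237).

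Lamp1 and Lamp2 encode the most abundant glycoproteins of the lysosomal membrane, and LAMP2A, a splice form of LAMP2, is the receptor of chaperone-mediated autophagy. Lamp1 (ENSMUSG00000031447.6, chromosome 8, 13159161 to 13175338, plus strand) had 500 and 553 CPM in Dgcr8 KO, 378 and 679 CPM in Drosha KO, 557 and 580 CPM in Ago1_2 KO, and 594 and 612 CPM in WT. Apart from Drosha KO, its libraries stayed within a narrow range, and those of both Dgcr8 KO and Ago1_2 KO lay just below WT. Its log2 difference from WT was -0.20 ± 0.27 in Dgcr8 KO (SE, edgeR adjusted p = 0.644), -0.19 ± 0.27 in Drosha KO (0.664) and -0.09 ± 0.27 in Ago1_2 KO (0.849). These intervals reach from -0.79 at the lowest to 0.51 at the highest, and differences within that span were not detectable with these libraries.

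Lamp2 (ENSMUSG00000016534.15, chromosome X, 38401357 to 38456454, minus strand) had every KO library above both WT libraries. It had 368 and 312 CPM in Dgcr8 KO, 293 and 381 CPM in Drosha KO, 334 and 300 CPM in Ago1_2 KO, and 282 and 232 CPM in WT. Taken singly, 30.7% of all genes lay above WT in this way in Dgcr8 KO, 25.1% in Drosha KO and 30.5% in Ago1_2 KO. The KO genotypes share the same WT libraries here, and the share of all genes above WT in every KO is not given. The log2 difference of Lamp2 from WT was 0.41 ± 0.21 in Dgcr8 KO (edgeR adjusted p = 0.225), 0.39 ± 0.21 in Drosha KO (0.243) and 0.30 ± 0.21 in Ago1_2 KO (0.338), none of them called. Its longest transcript has the lowest GC content of the 8 genes, 38.7%, and with the GC offset its difference in Dgcr8 KO was -0.04.

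Cd63 (ENSMUSG00000025351.13, chromosome 10, 128900989 to 128912822, plus strand) encodes a tetraspanin of late endosomes, lysosomes and exosomes. It had 104 and 117 CPM in Dgcr8 KO, 109 and 195 CPM in Drosha KO, 101 and 122 CPM in Ago1_2 KO, and 157 and 225 CPM in WT. Dgcr8 KO and Ago1_2 KO lay below both WT libraries and overlapped each other. It averaged 57.8% of WT in Dgcr8 KO (log2 difference -0.79 ± 0.29, unadjusted p 0.0207, edgeR adjusted p = 0.107). In Ago1_2 KO it averaged 58.3% of WT (log2 difference -0.78 ± 0.29, unadjusted p 0.0222, edgeR adjusted p = 0.0865).

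**Figure D3:**
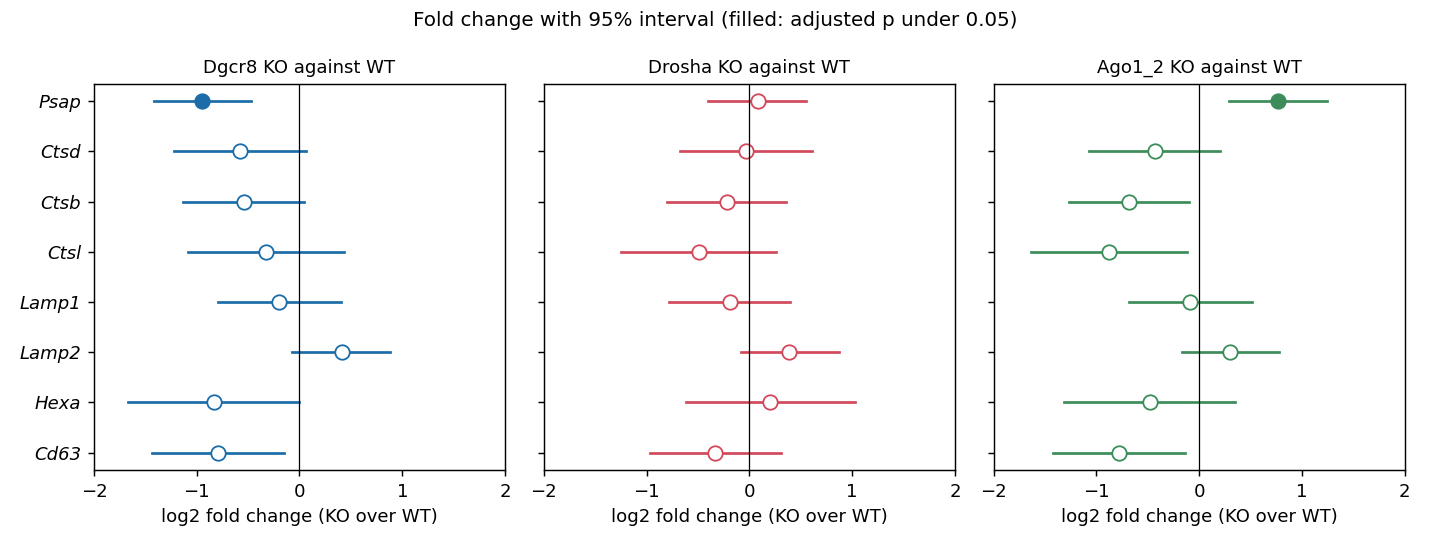
Log2 fold change of each of the 8 genes in each KO over WT (x axis), with 95% intervals of the edgeR fit; filled points passed an adjusted p of 0.05. Psap is filled at -0.95 in Dgcr8 KO and at 0.77 in Ago1_2 KO, and no other gene is filled.

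As a group, the 8 genes had a median log2 difference from WT of -0.56 in Dgcr8 KO, -0.11 in Drosha KO and -0.46 in Ago1_2 KO, beside medians over all genes tested of -0.03, -0.02 and -0.02. In Dgcr8 KO 1 of the 8 was called by edgeR, Psap, beside 6.93% of all genes tested, and 2 of the 8 had an unadjusted p under 0.05, beside 30% of all genes. In Ago1_2 KO 1 was called, again Psap, beside 17.6%, and 4 had an unadjusted p under 0.05, beside 34.8%. In Drosha KO none was called, beside 11.4% of all genes, with 0 at an unadjusted p under 0.05, beside 29.9% of all genes, and 0 by DESeq2 or limma-voom. Both Dgcr8 KO libraries lay below both WT libraries for 7 of the 8 genes, which 31.2% of all genes did, and above for Lamp2, which 30.7% did. Both Ago1_2 KO libraries lay below both WT libraries for 6 genes, beside 31.9% of all genes, and above for Psap and Lamp2, beside 30.5%. Both Drosha KO libraries lay above both WT libraries for 1 gene, Lamp2, beside 25.1% of all genes. These comparisons with WT all use the same WT libraries. The medians move with 1 WT library. Without WT 2 the median was -0.37 in Dgcr8 KO and -0.18 in Ago1_2 KO, and without WT 1 it was -0.70 and -0.65. With the GC offset it was -0.33 in Dgcr8 KO, while in Ago1_2 KO it was -0.47, near the -0.46 of the main fit.

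Between KO genotypes, Psap was the only one of the 8 genes called by edgeR, and DESeq2 also called Hexa in Drosha KO against Dgcr8 KO. In Drosha KO against Dgcr8 KO 1 of 8 was called beside 15.4% of all genes, in Ago1_2 KO against Dgcr8 KO 1 of 8 beside 17.1%, and in Ago1_2 KO against Drosha KO 0 of 8 beside 0.732%. In that last comparison 1 of 8 had an unadjusted p under 0.05, Psap, beside 9.78% of all genes, and DESeq2 and limma-voom also called 0. Median log2 differences of the 8 genes were 0.39, 0.06 and -0.39 in that order, and without Drosha KO 2 the first was -0.09 and the third 0.14.

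The Drosha KO libraries stood apart from each other in these genes. All 8 genes were higher in Drosha KO 2 than in Drosha KO 1, with a median log2 ratio of 0.844 and a range from 0.379 for Lamp2 to 1.37 for Hexa. Over 11041 genes at a mean of 5 CPM or more, this ratio had a median of -0.0113 and a standard deviation of 0.574, and 6.38% of genes were at or above 0.844. Across genes the ratio ran with transcript GC content in every genotype, with Spearman correlations of 0.18 for Dgcr8 KO, 0.27 for Drosha KO, 0.5 for Ago1_2 KO and 0.35 for WT, and its part in the difference between the Drosha KO libraries was not tested. Ctsl differed 2.4-fold between the Drosha KO libraries, Ctsb 1.81-fold, Lamp1 1.80-fold, Cd63 1.79-fold, Ctsd 1.77-fold and Psap 1.47-fold. With 1 library each way this is a description and not a test. The median log2 ratio of library 2 over library 1 was 0.0989 in Dgcr8 KO, with 5 of 8 genes higher in library 2, 0.12 in Ago1_2 KO with 7 higher, and 0.189 in WT with 7 higher. The direction against WT turned with the Drosha KO library used: without Drosha KO 1 the median log2 difference from WT was 0.25, with 8 of 8 genes above 0, and without Drosha KO 2 it was -0.65, with 7 of 8 below 0.

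**Figure D4:**
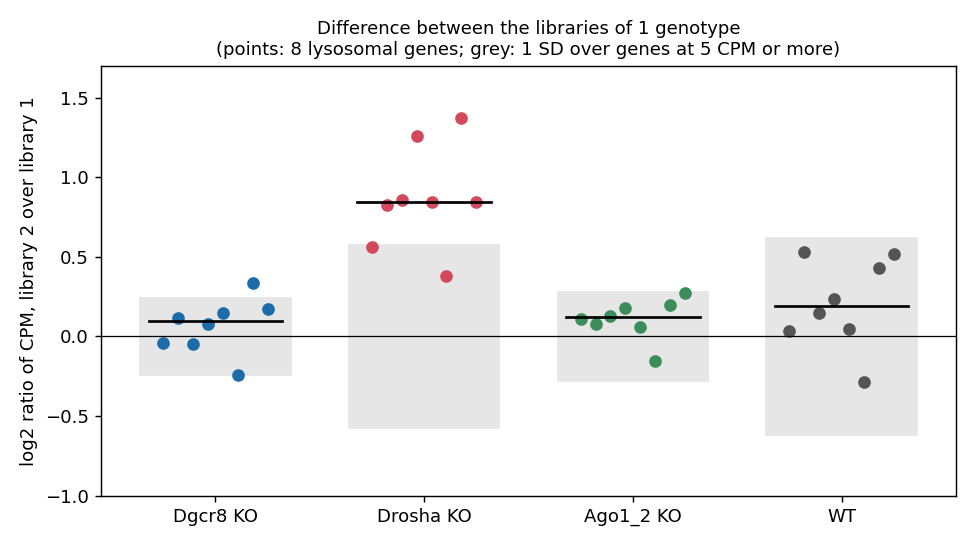
Log2 ratio of library 2 over library 1 within each genotype for the 8 genes (y axis, points), with the KO genotypes left of WT; lines are medians of the 8 and grey bands reach 1 SD on either side of 0, the SD being that of the ratio over genes at a mean of 5 CPM or more. In Drosha KO all 8 points lie above 0, between 0.379 and 1.37, and in the other genotypes they lie between -0.285 and 0.533.

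Other lysosomal genes were also mostly higher in Drosha KO 2. Of 128 tested genes of 9 lysosomal and related lists, the 8 genes left out, 91 were higher in Drosha KO 2, with a median log2 ratio of 0.32. Vacuolar ATPase subunits, which acidify the lysosome, were higher in 15 of 16 cases with a median of 0.42, and glycosidases, sulfatases and sphingolipid enzymes in 22 of 26 with a median of 0.81. The MiT/TFE factors and their nutrient control were not mostly higher, with 5 of 14 higher and a median of -0.07. Lipases, phosphatases and nucleases were higher in 5 of 9 cases (median 0.34), sorting genes in 11 of 15 (0.06), proteases and thioesterases in 9 of 12 (0.58), other membrane proteins in 12 of 19 (0.26), cathepsin inhibitors in 3 of 4 (0.42) and other tetraspanins in 9 of 13 (0.27). Over the 11041 genes at a mean of 5 CPM or more, 48.9% were higher in Drosha KO 2, with a median of -0.0113. Of the same 128 genes, 73 were higher in library 2 in Dgcr8 KO (57%, median 0.06), 80 in Ago1_2 KO (62.5%, 0.08) and 79 in WT (61.7%, 0.14). Over the 11041 genes the shares were 50% in Dgcr8 KO, 51.4% in Ago1_2 KO and 51.8% in WT. In WT the vacuolar ATPase subunits were higher in library 2 in 13 of 16 cases, with a median of 0.37. Of the MiT/TFE list, 5 of 14 were higher in library 2 in WT, 6 of 14 in Dgcr8 KO and 6 of 14 in Ago1_2 KO. Cd68, a lysosomal glycoprotein that is used as a macrophage marker, had 30.5 CPM in Drosha KO 1 and 87.5 CPM in Drosha KO 2, against 35.9 and 31.3 CPM in WT. Of the 9 listed macrophage markers only Cd68 and Itgam reached 1 CPM in any library, and Adgre1 was at 0 in all. The summed macrophage list was 31.6 and 88 CPM in Drosha KO and 37 and 32.8 CPM in WT. Summed markers of feeder fibroblasts, 4 of 9 at 1 CPM or more and led by Vim, were 223 and 242 CPM in Dgcr8 KO, 432 and 214 CPM in Drosha KO, 395 and 407 CPM in Ago1_2 KO, and 119 and 337 CPM in WT. Endoderm markers, 4 of 10 at 1 CPM or more in a library, summed to 5.84 to 10.9 CPM in KO libraries and to 4.57 and 4.93 CPM in WT. Trophectoderm markers, 5 of 8 at that level, summed to 50.1 and 54.3 CPM in Dgcr8 KO, to 82 to 114 CPM in Drosha KO and Ago1_2 KO, and to 101 and 90.2 CPM in WT. The part of other cell types in these results was not tested.

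Genes whose level followed the mean of the 8 genes most closely over the 8 libraries were Phkg1 (Pearson r 0.98), Pold4 (0.979), Dqx1 (0.972), Neu1 (0.971) and Eps8l2 (0.966), of 10335 genes ranked. Neu1 encodes the lysosomal sialidase and had 26.5 and 30.7 CPM in Dgcr8 KO, 24.2 and 83.4 CPM in Drosha KO, 34.4 and 41.3 CPM in Ago1_2 KO, and 40.9 and 48.6 CPM in WT. It too was highest in Drosha KO 2 and lowest in Drosha KO 1. Ctsd and Hexa were the most alike pair of the 8 genes (r 0.97), and Lamp2 and Cd63 the least (r -0.41). These correlations describe 8 libraries that share 4 genotypes and carry no test.

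The wider lysosomal lists gave a share of called genes close to that of all genes in each comparison with WT. Of the 128 genes, edgeR called 3 higher and 5 lower in Dgcr8 KO (6.25%, beside 6.93% of all genes), 9 higher and 5 lower in Drosha KO (10.9% beside 11.4%), and 11 higher and 9 lower in Ago1_2 KO (15.6% beside 17.6%). Against Dgcr8 KO, edgeR called 18 higher and 7 lower in Drosha KO (19.5% beside 15.4%) and 17 higher and 8 lower in Ago1_2 KO (19.5% beside 17.1%). Between Ago1_2 KO and Drosha KO edgeR called 0 of 128, with 12 at an unadjusted p under 0.05, 2 called by DESeq2 and 1 by limma-voom.

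Among the proteases and thioesterases, 12 other genes were tested. In Dgcr8 KO edgeR called 0, with 3 at an unadjusted p under 0.05, 1 by DESeq2 and 0 by limma-voom, and the median log2 difference was -0.15. The median was 0.33 in Drosha KO and 0.29 in Ago1_2 KO. In Drosha KO 1 was called, Ctsf, a cysteine cathepsin, at 36.8 and 30.2 CPM against 7.11 and 11.1 CPM in WT (3.67-fold, edgeR adjusted p = 0.00416). In Ago1_2 KO 3 were called. Ctsf rose 3.68-fold, to 31.4 and 35.8 CPM (edgeR adjusted p = 0.00264). Ctso, another cysteine cathepsin, rose to 3.50 and 2.54 CPM, against 0.282 and 0.145 CPM in WT (edgeR adjusted p = 0.00824). Ctsc, the dipeptidyl peptidase that activates granule serine proteases, fell to 37.6 and 41.5 CPM, against 97.5 and 139 CPM in WT (0.334-fold, edgeR adjusted p = 0.0267). Cathepsin inhibitors had 4 tested genes, of which Serpinb6a fell in Dgcr8 KO to 36.2 and 45.6 CPM, against 67 and 103 CPM in WT (edgeR adjusted p = 0.0314). EdgeR called 0 of the 4 in Drosha KO and 0 in Ago1_2 KO. Each of these had 1 gene at an unadjusted p under 0.05 and 1 called by DESeq2, and limma-voom called 1 in Drosha KO and 0 in Ago1_2 KO. The inhibitors had medians of -0.92 in Dgcr8 KO, -0.09 in Drosha KO and -0.27 in Ago1_2 KO.

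The 26 other glycosidases, sulfatases, sphingolipid enzymes and activators had a median log2 difference from WT of -0.41 in Dgcr8 KO, 0.04 in Drosha KO and -0.30 in Ago1_2 KO, with 3, 2 and 2 genes called. Arsb, arylsulfatase B of glycosaminoglycan breakdown, was called higher in each KO, at 5.38 and 5.78 CPM in Dgcr8 KO, 10.4 and 8.57 CPM in Drosha KO, and 8.40 and 12.2 CPM in Ago1_2 KO, against 1.58 and 1.89 CPM in WT. All KO libraries were above both WT libraries, by 3.20-fold, 5.45-fold and 5.89-fold on average (edgeR adjusted p = 0.0238, 0.00384 and 0.00214). These comparisons share the WT libraries, and Arsb was named for its small p, so the separation adds no support of its own. Gm2a, the activator that presents GM2 ganglioside to the enzyme of which Hexa encodes a subunit, fell in Dgcr8 KO to 20.9 and 27.2 CPM, against 46.6 and 57.3 CPM in WT (0.463-fold, edgeR adjusted p = 0.0314).

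The 9 lipases, phosphatases and nucleases gave 1 call in Dgcr8 KO, 1 in Drosha KO and 2 in Ago1_2 KO, all lower than WT. Rnaset2a, a lysosomal ribonuclease gene, was called in each, at 16.8 and 16.5 CPM in Dgcr8 KO, 10.7 and 10.6 CPM in Drosha KO, and 11.7 and 12.4 CPM in Ago1_2 KO, against 30.9 and 36.8 CPM in WT. Every KO library was below both WT libraries (edgeR adjusted p = 0.0266, 0.00292 and 0.00302). Here too the comparisons share the WT libraries, and Rnaset2a was named for its small p. The median log2 difference of the list was -0.65, 0.12 and -0.22 in the same order of KO genotypes. The near-identical copy of Rnaset2a, Rnaset2b, fell in Ago1_2 KO to 4.38 and 7.78 CPM, against 29.3 and 13.6 CPM in WT (edgeR adjusted p = 0.0333), and reads of the copies may have been split between them.

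Of 19 other lysosomal membrane proteins and transporters, 1 was called in Dgcr8 KO, 3 in Drosha KO and 4 in Ago1_2 KO, 1 of the last being lower than WT. Their median log2 difference from WT was 0.11, 0.20 and 0.30 in that order. Ctns, the cystine exporter, rose in Dgcr8 KO to 39.7 and 42 CPM and in Drosha KO to 32.4 and 42.8 CPM, against 24 and 18.5 CPM in WT (edgeR adjusted p = 0.037 and 0.0428). Tpcn1, an endolysosomal cation channel, rose in Drosha KO to 54.1 and 42.1 CPM and in Ago1_2 KO to 53.5 and 62.7 CPM, against 30.9 and 19.5 CPM in WT (edgeR adjusted p = 0.0456 and 0.0149). Cln3 rose in Drosha KO to 56.7 and 67.7 CPM, against 30 and 37 CPM in WT (edgeR adjusted p = 0.0321). Scarb2, which encodes LIMP-2, the carrier of glucocerebrosidase, rose in Ago1_2 KO to 179 and 163 CPM, against 92.8 and 72.5 CPM in WT (2.07-fold, edgeR adjusted p = 0.0144). Ostm1, a partner of the ClC-7 chloride transporter, rose there to 77.8 and 62.2 CPM, against 31.9 and 32.6 CPM in WT (2.17-fold, edgeR adjusted p = 0.00733). Of the 16 vacuolar ATPase subunits, Atp6v0a2 was called in Ago1_2 KO, at 74.2 and 62.6 CPM against 33.8 and 31.2 CPM in WT (2.10-fold, edgeR adjusted p = 0.00697). EdgeR called 0 of the 16 in Dgcr8 KO and 0 in Drosha KO, with 3 and 4 at an unadjusted p under 0.05, 0 and 1 by DESeq2, and 0 and 0 by limma-voom. The subunits had medians of -0.21 in Dgcr8 KO, 0.06 in Drosha KO and -0.14 in Ago1_2 KO.

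Sorting of the enzymes to the lysosome gave 0 of 15 calls in Dgcr8 KO by edgeR, with 3 at an unadjusted p under 0.05, 1 by DESeq2 and 0 by limma-voom. It gave 2 calls in Drosha KO and 2 in Ago1_2 KO, the same genes in each, and medians of 0.21 in Dgcr8 KO, 0.20 in Drosha KO and 0.08 in Ago1_2 KO. Nagpa, the uncovering enzyme that exposes the mannose 6-phosphate tag, rose in Drosha KO to 23.2 and 24.1 CPM and in Ago1_2 KO to 24.8 and 26.6 CPM, against 9.65 and 13.8 CPM in WT (edgeR adjusted p = 0.0277 and 0.0148). Vps26a, a retromer subunit, rose in Drosha KO to 101 and 97.6 CPM and in Ago1_2 KO to 182 and 185 CPM, against 68.2 and 58.9 CPM in WT (edgeR adjusted p = 0.0483 and 0.00144). Among 14 genes of the MiT/TFE factors and their nutrient control, 1 was called in Dgcr8 KO, 2 in Drosha KO and 1 in Ago1_2 KO, with medians of 0.22, 0.31 and 0.18. Fnip1, a partner of folliculin, rose in Dgcr8 KO to 133 and 110 CPM, against 77.8 and 52 CPM in WT (edgeR adjusted p = 0.0463). Rragd, a Rag GTPase, rose in Drosha KO to 92.4 and 89.4 CPM and in Ago1_2 KO to 123 and 106 CPM, against 51.8 and 37.5 CPM in WT (edgeR adjusted p = 0.015 and 0.00351). Mitf, one of the CLEAR-binding factors, fell in Drosha KO to 40.2 and 34.7 CPM, against 85.2 and 63.9 CPM in WT (0.502-fold, edgeR adjusted p = 0.0173). These list calls depend on single libraries: of the 8 list genes that the naming rule took for Dgcr8 KO, 0 kept their edgeR call without Dgcr8 KO 1, without Dgcr8 KO 2 or without WT 2, while none changed direction. Of the 14 taken for Drosha KO, 5 kept it without Drosha KO 1 and 4 with only the 2 genotypes compared, and of the 17 taken for Ago1_2 KO, 7 kept it without Ago1_2 KO 1.

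Of 13 other tetraspanins, the family of Cd63, 1 was called in Dgcr8 KO, 3 in Drosha KO and 5 in Ago1_2 KO, 1 of the last being higher than WT, with median log2 differences of -0.49, -0.39 and -0.35. Cd151 fell in Dgcr8 KO to 32.8 and 38.7 CPM, against 63 and 69.3 CPM in WT (edgeR adjusted p = 0.0464). Tspan6 fell in Drosha KO to 3.01 and 3.26 CPM and in Ago1_2 KO to 2.90 and 2.92 CPM, against 12.4 and 12.9 CPM in WT (edgeR adjusted p = 0.00311 and 0.00176). Cd9 fell in Drosha KO to 164 and 272 CPM, against 380 and 405 CPM in WT (edgeR adjusted p = 0.0499), and Tspan2 to 2.04 and 1.32 CPM, against 8.52 and 3.63 CPM (0.0494). In Ago1_2 KO Tspan7 fell to 0.597 and 0.673 CPM, against 3.05 and 2.37 CPM in WT (edgeR adjusted p = 0.0265), and Cd37 rose to 2.71 and 5.09 CPM, against 0.451 and 1.11 CPM (0.0214).

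Exons of several of the 8 genes overlap other genes, and the sources used here do not say whether the counts used strand. Ctsb shares 12.8% of its exonic bases with Fdft1 on the opposite strand, Hexa 12.8% with Tmem202 and Lamp1 9.3% with Grtp1, also on the opposite strand. Other overlaps were with genes that have no row in the count table. Ctsd shares 34.4% of its exonic bases with Gm49369 on the same strand, which strand cannot resolve. Ctsl shares 26.8% with Gm47123 on the opposite strand and 6.1% with the pseudogene Gm49230 on the same strand. Summed over all libraries, Fdft1 had 35260 counts, Grtp1 5566 and Tmem202 1, so reads of Ctsb and Fdft1, and of Lamp1 and Grtp1, may not be fully told apart.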

How the data were processed

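The deposited table holds whole-number counts per gene, made by the authors from polyadenylated RNA with an Illumina TruSeq kit and a reverse-stranded protocol, per the labels. Reads were aligned with STAR 2.4.2a to mm10 (GRCm38), per the submitters' processing notes. Counting tool, use of strand and annotation: not given in the sources used here. Of the count columns, 0 were left unused.

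Identifiers without version were matched to symbols and to GENCODE M21 (GRCm38), which gave a symbol to 47224 of 47643 genes. Counts were filtered with filterByExpr by genotype (16388 genes left), scaled with TMM factors and fitted with 1 mean per genotype over all 8 libraries in edgeR 4.0.16 (R 4.3.3), with robust dispersion and quasi-likelihood estimates and 4 residual degrees of freedom. Total counts of 13229771 to 26333907 gave each of the 8 genes 1629 counts or more in every library, so the spread between libraries, not counting error, limits precision. Each of the 6 comparisons of 2 genotypes, and a joint test, used the quasi-likelihood F test, with Benjamini-Hochberg adjustment over the 16388 genes. Genes with an adjusted p under 0.05 count as called. SE and 95% intervals come from the same test. CPM per kb divide CPM by merged exon length.

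The 8 genes and the lists were chosen with earlier results of these data known. Named beyond them were the targeted genes, up to 3 called genes per list and KO by smallest p, and the 5 genes most correlated with the mean of the 8. Some list genes that the rule took are not reported here. Promoter sequences are RefSeq's (GRCm38.p6).

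Alternatives tried were scaling by DESeq2 size factors or by library size alone, DESeq2 1.42.0 or limma-voom (limma 3.58.1) as the test, no filter, a filter of 1 CPM, the replicate number as a block, an offset for transcript GC content, both together, only the 2 genotypes compared, and each library left out in turn. Running them for the list genes was chosen after seeing the data. Python 3.11.15 with numpy 2.4.6, pandas 2.3.3 and matplotlib 3.10.9 did the rest.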

Additional observations from a re-analysis of the deposited data

How the results depend on the processing

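Of 864 log2 differences of the 8 genes under the alternatives, 768 kept their direction and side of the threshold, 30 passed it newly, 17 no longer passed it, and 49 changed sign. No called difference changed sign. The cause of each change was not tested.

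The number of the 8 genes called by edgeR, 1 for Dgcr8 KO against WT, was 3 without a filter, 2 with the replicate block, and 0 with the GC offset and with block and offset together. For Ago1_2 KO against WT, also 1, it was 2 with DESeq2 (Psap and Ctsl), 4 without a filter, 2 with the block, 3 with the GC offset, 4 with both and 0 with only the 2 genotypes compared. For Drosha KO against Dgcr8 KO, also 1, it was 2 with DESeq2 (Psap and Hexa), 2 without a filter, 2 with the block and 0 with the GC offset. For Ago1_2 KO against Dgcr8 KO it was 2 with only those genotypes. The joint test called 5 without a filter, 2 with the block and 2 with block and GC offset. Leaving out 1 library gave 0 to 2 in Dgcr8 KO against WT, 0 to 1 in Drosha KO, 0 to 4 in Ago1_2 KO, 0 to 2 in Drosha KO against Dgcr8 KO and 1 to 5 in the joint test.

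Same-numbered libraries of different genotypes deviated together with correlations of 0.15, 0.096, 0.14, 0.24, 0.24 and 0.13 over genes, all of them positive. Whether the numbers pair the libraries was not tested. The main fit did not pair them, and the replicate block is given as an alternative.

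With the GC offset, and with block and offset together, signs turned for uncalled differences. In Ago1_2 KO against Dgcr8 KO these were Cd63 (-0.60 and -0.59), Ctsd (-0.33 and -0.32), Hexa (-0.06 and -0.04), Lamp1 (-0.05 and -0.05) and Lamp2 (0.19 and 0.19). In Drosha KO against Dgcr8 KO they were Cd63 (-0.16 and -0.18), Lamp1 (-0.11 and -0.13), Lamp2 (0.40 and 0.38) and, with the offset alone, Ctsl (0.10). In Dgcr8 KO against WT it was Lamp2 (-0.04 and -0.03). With library size only, Ctsd in Drosha KO against WT was 0.02, Lamp1 in Ago1_2 KO against WT 0.01 and Lamp1 in Drosha KO against Dgcr8 KO -0.04, and the last was -0.06 with limma-voom and -0.03 with the block.

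Leaving out 1 library turned signs mostly through the Drosha KO libraries. Ranges for Drosha KO against WT were -0.80 to 0.03 for Cd63, -0.70 to 0.15 for Ctsb, -0.49 to 0.33 for Ctsd, -1.25 to 0.01 for Ctsl, -0.63 to 0.73 for Hexa, -0.66 to 0.17 for Lamp1 and -0.22 to 0.33 for Psap. For Drosha KO against Dgcr8 KO they were -0.01 to 0.83 for Cd63, -0.16 to 0.70 for Ctsb, -0.93 to 0.33 for Ctsl, -0.47 to 0.37 for Lamp1 and -0.21 to 0.17 for Lamp2. For Ago1_2 KO against Drosha KO they were -0.81 to 0.04 for Cd63, -0.83 to 0.04 for Ctsb, -0.76 to 0.08 for Ctsd, -0.89 to 0.39 for Ctsl, -1.22 to 0.16 for Hexa, -0.26 to 0.60 for Lamp1 and -0.27 to 0.12 for Lamp2. For Ago1_2 KO against Dgcr8 KO they were -0.12 to 0.14 for Cd63 and -0.21 to 0.02 for Lamp2.

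Over all genes, edgeR's 1136 calls in Dgcr8 KO against WT became 2355 with DESeq2, 3241 without a filter, 2795 with the block, 720 with the GC offset, 723 with only those genotypes and 40 to 4245 without 1 library. The 1862 calls in Drosha KO became 3413 without a filter, 2884 with the block, 3047 with block and GC offset, 589 with only those genotypes and 714 to 4003 without 1 library. The 2887 calls in Ago1_2 KO became 4431 without a filter, 4457 with block and GC offset and 556 to 4955 without 1 library. Against Dgcr8 KO, the 2525 calls in Drosha KO became 320 to 3900 without 1 library, and the 2808 in Ago1_2 KO 7171 with only those genotypes and 513 to 4239 without 1 library. The 120 calls in Ago1_2 KO against Drosha KO became 362 with DESeq2, 648 without a filter, 15 with only those genotypes and 6 to 176 without 1 library. The joint test's 4069 became 7135 without a filter and 1439 to 7101 without 1 library.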
